A study of Mus musculus with 26 samples.

Results

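The transcripts of 10 lens crystallin genes were followed through 26 mouse RNA-seq libraries, 22 of them from whole retina. The members were Cryaa, Cryba1, Cryba2, Cryba4, Crybb1, Crybb2, Crybb3, Crygb, Crygd and Crygs, taken by symbol from the 37991 Ensembl genes of the count table, where each symbol had 1 identifier. They were chosen by their measured counts in these same libraries, above all the high level in 1 DZNep-treated retina and the low levels in the others. Their levels and their fold changes in the treatment comparisons are therefore given as a description; calls of members in the fits across all genes are counted beside the share of all genes called, and nothing is read from them.

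All animals carried the rd10 mutation of the rod phosphodiesterase gene Pde6b, a model of retinitis pigmentosa in which rods degenerate, and all were injected from postnatal day (PN) 9 to PN24. Epigenetic inhibitors were tested on whole retina of B6.CXB1-Pde6brd10/J mice, each against the controls of its own experiment. DZNep (EZH2; 1.5 and later 1 mg/kg) had 4 control and 2 treated libraries, UNC1999 (EZH2; 15 mg/kg) 3 and 3, UNC0642 (G9A/GLP; 7.5 mg/kg) 2 and 2, and Romidepsin (HDAC; 0.2 mg/kg) 3 and 3. A further experiment sorted rods by flow cytometry from rd10 mice crossed with the line B6.Cg-Tg(Nrl-EGFP)1Asw/J, which carry EGFP under the rod promoter Nrl, after saline or GSK2879552 (LSD1; 4.2 mg/kg), with 2 libraries each. DZNep was given daily at the first dose and every second day at the later one, and the other compounds daily. The study names saline for the controls of DZNep, UNC0642 and Romidepsin. UNC1999 was given in a diluent with DMSO, PEG300 and Tween-80. The labels give saline for its controls, while the study names saline or diluent in different places; with saline, compound and diluent cannot be told apart. The labels call the libraries biological replicates and do not say whether a library pooled animals.

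Library totals lay between 13732959 and 36354094 counts in the retinas and between 7289460 and 19864491 in the sorted rods. Levels are given as CPM, counts scaled to a common library size with TMM factors over all 26 libraries. A count of 3, used as the floor, stood for 0.0825 to 0.218 CPM of library total in a retina and for 0.151 to 0.412 CPM in a rod library. The rod marker list (16 genes) summed to between 9714 and 78330 CPM in the retinas. In such bulk samples, fewer cells of a type and less RNA per cell cannot be told apart.

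Crystallins are the soluble proteins that fill the fibre cells of the lens and give it its refractive power. The alpha-crystallins are small heat-shock proteins that act as chaperones, whereas the beta- and gamma-crystallins share a Greek key fold and are structural, the beta chains assembling into oligomers and the gamma chains remaining monomers. Transcription factors of the Maf, Pax6 and Sox families drive their genes in the lens, and several members have also been described outside it, retina included.

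The genes lie on 5 chromosomes of the build used for counting (NCBIM37). Cryaa is on chr17:31814878-31818667 and Cryba1 on chr11:77532117-77538785. Cryba4 (chr5:112675513-112681538) and Crybb1 (chr5:112684835-112698605) are neighbours on opposite strands, and Crybb2 (chr5:113487278-113499137) and Crybb3 (chr5:113504859-113510604) are neighbours on the same strand. Crygd (chr1:65108446-65110026) and Crygb (chr1:65126804-65128862) belong to the gamma cluster, while Cryba2 (chr1:74936508-74939717) and Crygs (chr16:22805276-22811483) lie away from the other members.

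Promoter sequences from RefSeq (GRCm38.p6) matched all 10 members, and 5 are printed because they show both kinds of member described below. Cryaa (chr17:31677681-31677930, plus strand), Cryba1 (chr11:77725294-77725543, minus strand) and Crygd (chr1:65063441-65063690, minus strand) rose far above all other retinas in 1 library (Cryba1 and Crygd being at 0 in most others), whereas Crybb3 (chr5:113081585-113081834, minus strand) and Crybb1 (chr5:112255570-112255819, plus strand) had their counts spread over all 22. The kinds differ by degree: Cryaa also had a count in all 22, and Crybb1 was also highest in that library, at 2.48 times the next. Each run is the 250 bases before the annotated start, 5′ to 3′ on the strand of the gene. Capitals mark TGCTGA or its reverse complement TCAGCA, the core of the element that Maf factors recognise.
Cryaa: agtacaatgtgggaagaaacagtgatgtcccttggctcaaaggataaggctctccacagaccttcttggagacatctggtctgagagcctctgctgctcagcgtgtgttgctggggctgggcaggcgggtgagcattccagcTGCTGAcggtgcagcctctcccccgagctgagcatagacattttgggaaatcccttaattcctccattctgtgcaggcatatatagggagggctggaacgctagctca
Cryba1: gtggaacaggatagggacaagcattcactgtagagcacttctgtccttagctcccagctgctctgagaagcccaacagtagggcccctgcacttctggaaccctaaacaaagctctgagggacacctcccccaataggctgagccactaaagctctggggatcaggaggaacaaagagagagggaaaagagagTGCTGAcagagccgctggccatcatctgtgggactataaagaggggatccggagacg
Crygd: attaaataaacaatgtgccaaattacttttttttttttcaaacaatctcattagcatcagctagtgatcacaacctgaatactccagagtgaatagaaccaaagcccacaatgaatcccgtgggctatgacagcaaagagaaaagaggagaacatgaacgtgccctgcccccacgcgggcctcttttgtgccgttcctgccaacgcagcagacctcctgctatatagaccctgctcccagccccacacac
Crybb3: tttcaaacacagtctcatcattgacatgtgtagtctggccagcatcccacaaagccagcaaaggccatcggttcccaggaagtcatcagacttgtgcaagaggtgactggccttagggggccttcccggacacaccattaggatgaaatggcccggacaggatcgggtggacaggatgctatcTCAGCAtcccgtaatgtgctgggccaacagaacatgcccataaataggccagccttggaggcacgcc
Crybb1: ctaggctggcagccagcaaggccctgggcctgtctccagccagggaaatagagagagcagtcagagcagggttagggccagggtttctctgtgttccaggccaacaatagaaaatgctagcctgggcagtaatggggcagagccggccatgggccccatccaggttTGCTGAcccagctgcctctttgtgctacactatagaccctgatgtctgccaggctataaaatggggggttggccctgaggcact
The match begins at position -108 in Cryaa, -57 in Cryba1, -67 in Crybb3 and -84 in Crybb1, counted from the start with -1 as the first base before it. In all, 7 of the 10 members held the motif on either strand, against 16.1% of 32851 promoter windows of the same length. The 3 without it were Crybb2, Crygb and Crygd. The window of Crygd shared an unbroken run of 56 bases with that of Cryge, another gene of the gamma cluster. These are matches of letters and say nothing of binding.

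A single retina library stood apart from the rest. In the second DZNep-treated retina (DZNep replicate 2) the 10 members summed to 97.5 CPM (1299 counts), against 9.42 CPM (143 counts) in the next library, UNC0642 treated replicate 2, and a median of 5.54 CPM over the other 21 retinas. The ratio of the highest to the next library was 10.3, and without Crybb3, the member with most counts elsewhere, it was 23.9 with DZNep control 1 as the next. DZNep replicate 2 was the highest retina for 9 of the 10 members and ranked 3 of 22 for Crybb3. Its library total, 14115428, was among the lower ones.

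**Figure D1:**
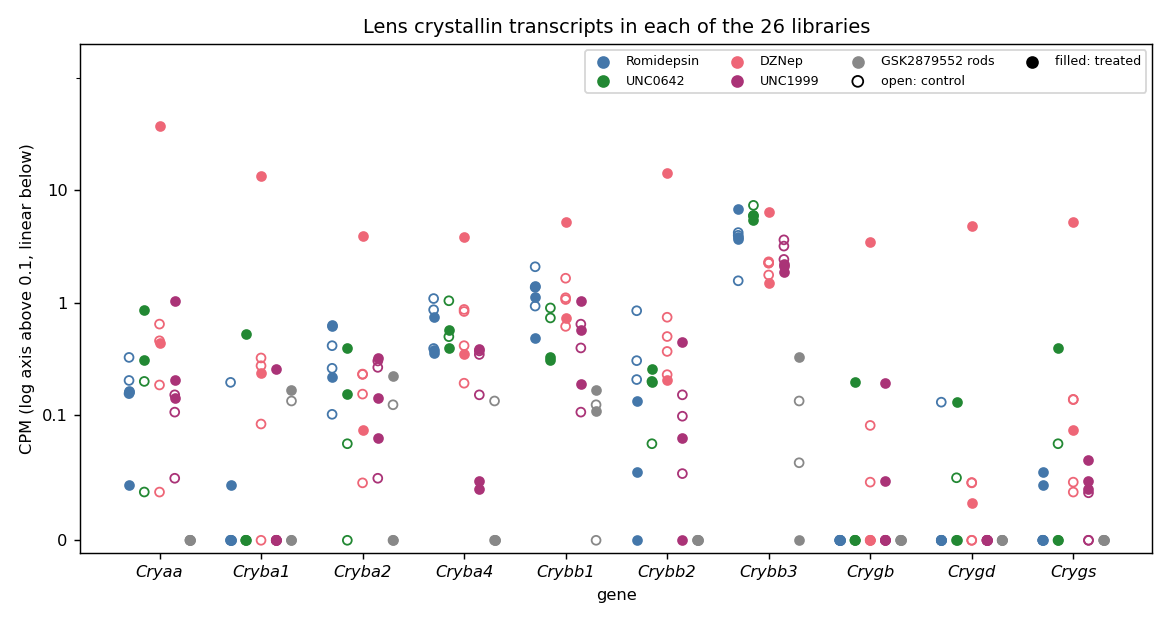
CPM of each member (x axis) in each of the 26 libraries (points; colour gives the experiment, open points controls, filled points treated), on an axis that is logarithmic above 0.1 CPM and linear below. The filled DZNep point at 37.3 CPM of Cryaa and the points above all others for 8 further genes are the same library, while for Crybb3 that library lies among the other retinas.

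Cryaa, the alpha-A chaperone, showed the widest gap. The 4 DZNep controls had 10, 14, 4 and 1 counts (0.460, 0.647, 0.186 and 0.0386 CPM), DZNep replicate 1 had 15 counts (0.442 CPM) and DZNep replicate 2 had 497 counts (37.3 CPM). Only the second treated library lay above the controls; the first lay within them. Over the other 21 retinas Cryaa ranged from 1 to 16 counts with a median of 4, and the next library by CPM was UNC1999 treated replicate 1 (16 counts, 1.03 CPM). DZNep replicate 2 was 36.2 times higher than that library, with a 95% counting interval of 22.05 to 63.76. This and the other intervals cover counting error only.

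Cryab, the other alpha-crystallin, is a chaperone used by many tissues, retinal glia included, and did not share this pattern. It had 666 to 3735 counts in every other retina (42.9 to 161 CPM) and 787 counts (59.1 CPM) in DZNep replicate 2, which placed that library at rank 18 of 22. In the sorted rods Cryab was at 2.82 to 6.64 CPM.

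Among the acidic beta chains, Cryba1 and Cryba2 also peaked in the same library. Cryba1 (the gene of the beta-A3 and beta-A1 chains) had 6, 7, 2 and 0 counts in the DZNep controls, 8 in DZNep replicate 1 and 177 (13.3 CPM) in DZNep replicate 2. It was at 0 in 13 of the other 21 retinas, and the next library, UNC0642 treated replicate 2, had 8 counts (0.527 CPM), 25.2 times lower than DZNep replicate 2 (interval 12.5 to 59.3). Cryba2 had 1, 5, 5 and 4 counts in the DZNep controls, 3 in DZNep replicate 1 and 52 (3.90 CPM) in DZNep replicate 2, and between 0 and 14 in the other 21. Cryba4 was present in all 22 retinas at 1 to 27 counts outside DZNep replicate 2 (median 0.393 CPM) and had 51 counts (3.83 CPM) in it, 3.51 times the next library (interval 2.07 to 6.14).

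The basic beta chains divided. Crybb2 had 5, 8, 16 and 13 counts in the DZNep controls (0.230 to 0.744 CPM), 7 (0.206 CPM) in DZNep replicate 1 and 188 (14.1 CPM) in DZNep replicate 2, while Romidepsin control 1, the next library, had 13 (0.851 CPM). The ratio was 16.6 (interval 9.47 to 31.7). Crybb1 had 36, 24, 23 and 16 counts in the DZNep controls, 25 in DZNep replicate 1 and 69 (5.18 CPM) in DZNep replicate 2, or 2.48 times the next library (interval 1.66 to 3.74). Both genes were thus above every other retina, by very different factors.

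Crybb3 was the best-counted member elsewhere and the one that did not peak in DZNep replicate 2 among all 22 retinas. Within the DZNep experiment that library was its highest, and the higher ones came from other experiments. Its counts in the DZNep controls were 49, 49, 38 and 60 (1.77 to 2.32 CPM), with 51 (1.502 CPM) in DZNep replicate 1 and 86 (6.46 CPM) in DZNep replicate 2. Across the other 21 retinas it ranged from 24 to 153 counts (1.502 to 7.353 CPM, median 3.19). The highest library was UNC0642 control 2 at 147 counts, and the ratio of DZNep replicate 2 to it was 0.878 (interval 0.665 to 1.15).

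The gamma chains were nearest to absent elsewhere. Crygd had 1, 1, 0 and 0 counts in the DZNep controls, 1 in DZNep replicate 1 and 64 (4.805 CPM) in DZNep replicate 2, and was at 0 in 15 of the other 21 retinas with at most 2 counts. Crygb had 46 counts (3.45 CPM) in DZNep replicate 2, at most 3 in the other 21 and 0 in 16 of them. Crygs, a gamma chain that is still made in the adult lens, had 69 counts (5.18 CPM) in DZNep replicate 2 and 0 to 6 in the others, 20 of which had 3 counts or fewer. Of the 50-base stretches of their protein-coding transcripts, 29.97% of Crygb and 29.65% of Crygd also occur in other gamma genes. A read within such a stretch does not by itself tell these paralogs apart, and the effect on their counts was not tested. None of the stretches of the other 8 members was shared with another gene.

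Non-member gamma genes were counted in the same library. Crygc had 46 counts and Cryge 31 in DZNep replicate 2, with at most 2 and 1 in the other 21 retinas. Crygf and Cryga had 3 counts each there, and Crygn, a gene related to both the beta and gamma families, had 7 against 1 to 12 elsewhere.

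Per kilobase of exon, the order of the members differed between this library and the rest. In DZNep replicate 2 Cryaa led at 31.5 CPM per kb, followed by Cryba1 (8.11), Crygs (7.32) and Crybb2 (7.01), and Crybb3 was lowest at 2.77. In the other 21 retinas the median of Crybb3 was highest at 1.37 CPM per kb, followed by Crybb1 (0.739) and Cryba4 (0.463), while the medians of Cryba1, Crygb and Crygd were 0. Exon lengths ran from 623 bases (Crygb) to 2333 bases (Crybb3). For some members the exon length was well above that of the protein-coding transcripts. Crybb3, Cryba1 and Crybb2 had 2333, 1639 and 2012 bases of exon. Their protein-coding transcripts held only 1078, 772 and 857 stretches of 50 bases. The places of these genes in the order, Crybb3 as the lowest included, therefore depend on the length used. An order by transcript length was not tested.

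**Figure D2:**
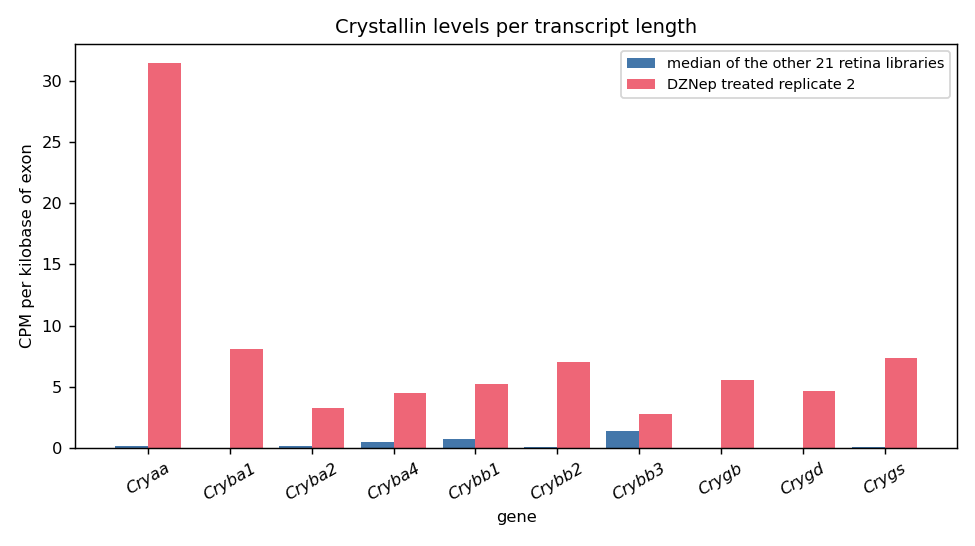
CPM per kilobase of exon for each member (x axis), as the median of the other 21 retina libraries and in DZNep treated replicate 2. Cryaa at 31.5 is the tallest bar of that library, whereas Crybb3 at 1.37 leads the medians of the others. The length is that of the exons, which for Crybb3, Cryba1 and Crybb2 is well above that of the protein-coding transcripts.

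The make-up of the crystallin counts showed the same contrast. In DZNep replicate 2 the alpha chain Cryaa made up 38.3% of the members' counts (exact 95% binomial interval 35.6 to 41.0), the 6 beta chains 48.0% (45.2 to 50.7) and the 3 gamma chains 13.8% (12.0 to 15.8). In the other 21 retinas the beta share ran from 77.0% to 98.5% with a median of 95.9%, the alpha share from 0.485% to 18.4% and the gamma share from 0 to 7.69%. Among the beta chains, Crybb3 took 6.62% (5.33 to 8.11) in DZNep replicate 2 and 30.8% to 80.0% in the others.

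**Figure D3:**
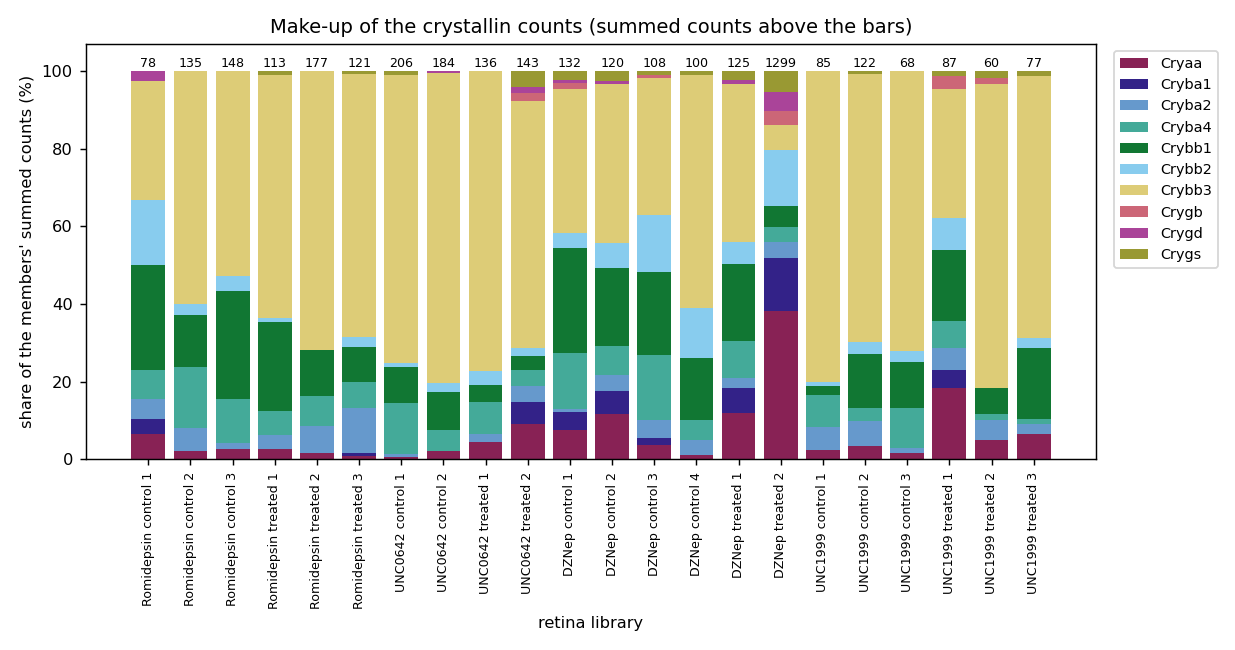
Share of each member in the summed crystallin counts (y axis, %) of each of the 22 retina libraries (x axis), with the summed count above each bar. Crybb3 fills 30.8% to 80.0% of 21 bars, and Cryaa at 38.3% is the largest segment of DZNep treated 2.

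Lower amounts of the same transcripts appeared in further libraries. Cryaa, Cryba1, Crygb, Crygd and Crygs, a set chosen after its values were seen, summed to 853 counts in DZNep replicate 2. Next came UNC0642 treated 2 with 32 counts, DZNep treated 1 with 27, DZNep control 2 with 25, UNC1999 treated 1 with 24 and DZNep control 1 with 22, and each of the remaining 16 retinas had 10 or fewer. Controls and treated libraries were both among these 5. The same 5 came next by CPM, but in another order, as the libraries differ in depth. UNC0642 treated 2 stood at 2.11 CPM and UNC1999 treated 1 at 1.55 CPM. DZNep treated 1, the deepest library, was lowest of the 5 at 0.795 CPM. Romidepsin control 1, highest of the remaining 16, was near it at 0.654 CPM. The gap between the 5 and the 16 was therefore narrower by CPM than by counts.

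Within this chosen set the make-up of DZNep replicate 2 was close to that of the other retinas pooled. Crybb2, with 188 counts in DZNep replicate 2 and 106 pooled over the other 21, was left out of the set. The likeness is therefore a description of these 5 genes, and nothing is read from it. Cryaa made up 58.3% of the 853 counts (54.9 to 61.6) and 59.0% of the 200 counts pooled over the other 21 (51.8 to 65.9), and Cryba1 20.8% (18.1 to 23.6) and 19.5% (14.2 to 25.7). Crygb took 5.39% and 5.00%, Crygd 7.503% and 4.00%, and Crygs 8.09% and 12.5%, with overlapping intervals for each. The 5 libraries with over 20 counts gave 52.3% Cryaa (43.4 to 61.1) and 25.4% Cryba1 (18.2 to 33.8). The 70 counts of the other 16 gave 71.4% Cryaa (59.4 to 81.6) and 8.57% Cryba1 (3.21 to 17.7), the last interval lying below that of DZNep replicate 2.

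In the 4 sorted rod libraries the members summed to 3, 5, 10 and 4 counts (0.310 to 0.563 CPM). Of the members, 5 were at 0 in all 4, and the highest count of any member was 4 (Cryba2). The rods were prepared with another kit (SMART-Seq) than the retinas, so that cell type and library preparation cannot be told apart. No member reached the low-count filter there, and 0% of the 14478 genes tested were called by edgeR's quasi-likelihood test (711 had an unadjusted p under 0.05, and 68 and 42 were called by the likelihood ratio test and DESeq2).

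The DZNep comparison was carried by its second library. Against the 4 controls, 5 members passed the filter on low counts, and 2 of them were called (adjusted p under 0.05 and a log2 fold change beyond 1 in edgeR's quasi-likelihood test), where 1.71% of 16477 genes were called. The choice of members used this contrast, so nothing is read from the count. The log2 fold changes (± SE) were 5.78 ± 1.33 for Cryaa, 3.84 ± 1.12 for Crybb2, 1.66 ± 0.85 for Cryba4, 1.27 ± 0.66 for Crybb1 and 0.77 ± 0.47 for Crybb3, with a median of 1.66 against -0.00057 over all genes tested. For none of the 10 members did both treated libraries lie above or below all 4 controls, whereas 45.9% of all genes tested did so.

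Without DZNep replicate 2 the same 5 members gave log2 fold changes of 0.44 ± 0.91 (Cryaa), -1.15 ± 0.72 (Crybb2), -0.68 ± 0.77 (Cryba4), -0.58 ± 0.51 (Crybb1) and -0.52 ± 0.26 (Crybb3), and 0 members were called. The sign of 4 of them turned. Without DZNep replicate 1, Cryaa stood at 6.83 ± 0.44. In that fit the filter can be met by DZNep replicate 2 alone, the library the members were chosen for, so its calls are not counted. In both fits the lone treated library is assumed to vary like the controls. The calls of Cryaa and Crybb2 were also lost with a robust estimate of the spread, added after seeing the data.

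**Figure D4:**
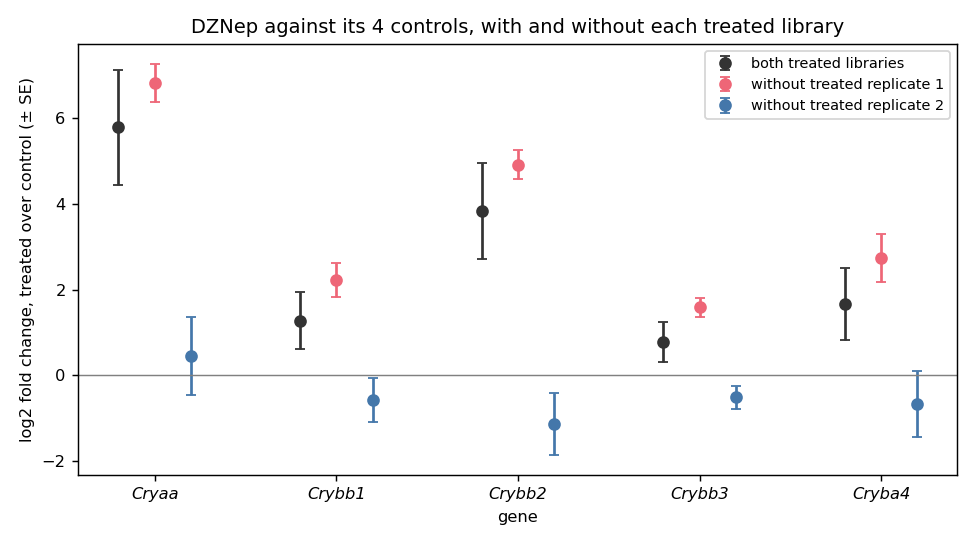
Log2 fold change of the 5 tested members (x axis), DZNep over control, with both treated libraries and with each left out; bars are the standard error. Cryaa stands at 5.78 with both, 6.83 without the first and 0.44 without the second treated library, and the other 4 fall below 0 without the second.

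In the UNC1999 comparison 2 members passed the filter and 0 were called, where 0.368% of 15775 genes were called. The counts of Crybb3 were 68, 84 and 49 in the controls (3.63, 3.19 and 2.43 CPM) and 29, 47 and 52 in the treated retinas (1.87, 2.23 and 2.13 CPM). All 3 treated libraries lay below all 3 controls in CPM, as 27.6% of all genes tested lay apart in one direction or the other. The log2 fold change was -0.56 ± 0.21. Crybb1 had 0.49 ± 0.68 with overlapping groups. Crygs also lay apart, at 0 or 1 count in the controls and 1 in each treated retina, under the floor.

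In the UNC0642 comparison 3 members passed the filter and 0 were called, where 0% of 16321 genes were called (2407 had an unadjusted p under 0.05, and the likelihood ratio test and DESeq2 called 34 and 15). Crybb1 had 19 and 18 counts in the controls (0.734 and 0.900 CPM) and 6 and 5 in the treated retinas (0.310 and 0.330 CPM), a log2 fold change of -1.31 ± 0.44. Both treated values lay below both controls, and 51.9% of all genes tested lay apart in the same sense. Crybb3 (-0.19 ± 0.20) and Cryba4 (-0.66 ± 0.51) also passed. Of the members under the filter, Cryaa (1 and 4 counts against 6 and 13 treated) and Cryba2 (2 and 0 against 3 and 6 treated) lay apart with the treated retinas higher. The control mean of Crybb3 was higher here than in the other retina experiments, and Cryab, at 138 to 161 CPM, exceeded all other retinas.

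In the Romidepsin comparison 3 members passed the filter and 0 were called, where 0.561% of 16049 genes were called. Crybb3 had 24, 81 and 78 counts in the controls and 71, 127 and 82 in the treated retinas (0.54 ± 0.38), with overlapping groups. Crybb1 (-0.56 ± 0.44) and Cryba4 (-0.69 ± 0.47) overlapped as well. Crybb2, below the filter, had 13, 4 and 6 counts in the controls and 1, 0 and 3 in the treated retinas; all treated values lay below all controls, as 25.9% of all genes tested lay apart. In the UNC1999, UNC0642 and Romidepsin comparisons no member was called by the likelihood ratio test or DESeq2 either, and Crybb3 in UNC1999 and Crybb1 in UNC0642 were the members with an unadjusted p under 0.05.

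Control levels were compared for the 3 members with most counts outside DZNep replicate 2. Crybb3 was at 2.15 ± 0.26 CPM (SD, n = 4) in the DZNep controls, 3.08 ± 0.61 (n = 3) in the UNC1999 controls, 3.25 ± 1.46 (n = 3) in the Romidepsin controls and 6.63 ± 1.02 (n = 2) in the UNC0642 controls. The UNC1999 and Romidepsin controls, neighbours in this order, overlapped, whereas the DZNep and UNC1999 controls, and the Romidepsin and UNC0642 controls, did not. Crybb1 ran in another order, from 0.383 ± 0.270 CPM in the UNC1999 controls and 0.817 ± 0.118 in the UNC0642 controls to 1.11 ± 0.42 in the DZNep and 1.47 ± 0.58 in the Romidepsin controls. Cryba4 was at 0.291 ± 0.121 in the UNC1999 controls and at 0.580 ± 0.331 to 0.784 ± 0.357 in the other control groups. For Crybb1 the UNC1999 and UNC0642 controls did not overlap, whereas the DZNep controls overlapped each of the other groups. For Cryba4 the DZNep controls also overlapped each of the others. The share of all genes that lay apart between these control groups is not given, so nothing is read from which groups overlapped.

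Among genes of the lens fibre cell other than crystallins, the well-counted ones differed less between DZNep replicate 2 and the other retinas than most members did. Of 12 such genes, the beaded filament genes Bfsp1 and Bfsp2, the heat-shock factor Hsf4, Lgsn and Grifin were counted in every retina, and Lim2, a fibre membrane protein, was at 0 in all 26 libraries. Bfsp1 was at 2.03 CPM (27 counts) in DZNep replicate 2 and 0.530 to 1.60 elsewhere, and Bfsp2 at 3.08 CPM (41 counts) and 0.587 to 2.70 elsewhere, both highest in that library. Their ratios to the next library were 1.27 (interval 0.727 to 2.19) and 1.14 (0.756 to 1.70). Hsf4 was at 5.86 CPM (4.42 to 9.52 elsewhere, rank 20), Lgsn at 1.43 (0.387 to 1.51, rank 3) and Grifin at 0.450 (0.0772 to 1.011, rank 4). Mip, the fibre water channel, had 4 counts there and at most 1 elsewhere, Lctl 6 against at most 2, and the gap junction gene Gja3 4 against at most 3. The ratios of these 3 genes to the next library were 5.63 (interval 0.557 to 277), 4.41 (0.789 to 44.7) and 2.28 (0.327 to 25.2). Such low counts cannot be set against the ratios of the members. In all, DZNep replicate 2 was the highest retina for 6 of the 12 genes, 4 of them at 6 counts or fewer. Foxe3, a transcription factor of the lens epithelium, was at 0 in all 26 libraries.

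Summed over the 12 genes, the lens fibre level was 14.1 CPM in DZNep replicate 2 and 8.00 to 14.5 CPM in the other 21 retinas, which placed that library at rank 3. Hsf4 made up much of this sum: without it, a choice added after seeing the data, DZNep replicate 2 ranked first at 8.26 CPM, against 2.25 to 5.52 CPM in the other 21. The log2 ratio of DZNep over control then turned from -0.11 to 0.35. With all 12 genes, the DZNep controls stood at 13.0 ± 1.6 CPM (SD, n = 4) and the treated retinas at 12.1 ± 2.9 (n = 2; exact two-sided permutation p = 0.533, where 0.133 is the smallest that 4 against 2 allows). The groups of the other retina experiments differed by a log2 ratio of -0.05 (UNC1999), -0.02 (UNC0642) and -0.35 (Romidepsin), with exact permutation p = 0.9, 1 and 0.2 and smallest possible values of 0.1, 0.333 and 0.1. In the rods the treated libraries were at 2.91 ± 0.10 and the controls at 1.30 ± 0.25 CPM (n = 2 each, exact permutation p = 0.333, the smallest possible), from single genes at 0 to 16 counts. None of these designs could reach 0.05. The labels do not tie libraries to animals, so these p-values measure the spread between libraries. Of the 12 genes, only 4 (Bfsp1, Bfsp2, Hsf4 and Lgsn) passed the filter in each retina comparison, and 1 (Lctl) in the rods. None of these was called in its comparison by the quasi-likelihood test, the likelihood ratio test or DESeq2. By the quasi-likelihood test, 0% to 1.71% of all genes tested were called. In that test 2 had an unadjusted p under 0.05 (Hsf4 in DZNep and Bfsp2 in Romidepsin). The other lens fibre genes were not tested in the retinas.

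Some markers of tissues that border the retina were also high in the same library. The ciliary body and iris list (Optc, Msx1 and Aqp1, none at 0) summed to 328 CPM in DZNep replicate 2, the highest of the 22 retinas, against 29.4 to 278 CPM in the other 21, although none of the 3 genes was itself highest there. Aqp1 gave 156 CPM of the sum, was at 171 CPM in DZNep replicate 1 and 124 to 160 CPM in the UNC1999-treated retinas, and was at 92.1 to 130 CPM in the sorted rods as well. Msx1 was at 1.28 CPM (rank 2). Optc, the opticin gene of the ciliary epithelium, was at 171 CPM there but higher in 2 Romidepsin controls, and the 3 Romidepsin controls (130, 215 and 205 CPM) had 10, 3 and 4 counts of the 5 members named above. The pigment genes Mlana (6.61 CPM, 0.312 to 3.10 elsewhere), Dct (101.3 CPM, 7.05 to 64.5 elsewhere) and Tyrp1 (30.8 CPM, 2.35 to 16.6 elsewhere) were also highest in DZNep replicate 2. The 12-gene retinal pigment epithelium list, with no gene at 0, stood at 392 CPM, rank 4 behind the 3 UNC1999-treated retinas (445 to 516 CPM). The corneal epithelium list was at 0.976 CPM, within the 0.695 to 3.07 CPM of the others, with 2 of its 6 genes at 0. Whether RNA of such tissues took part in the crystallin counts was not tested.

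**Figure D5:**
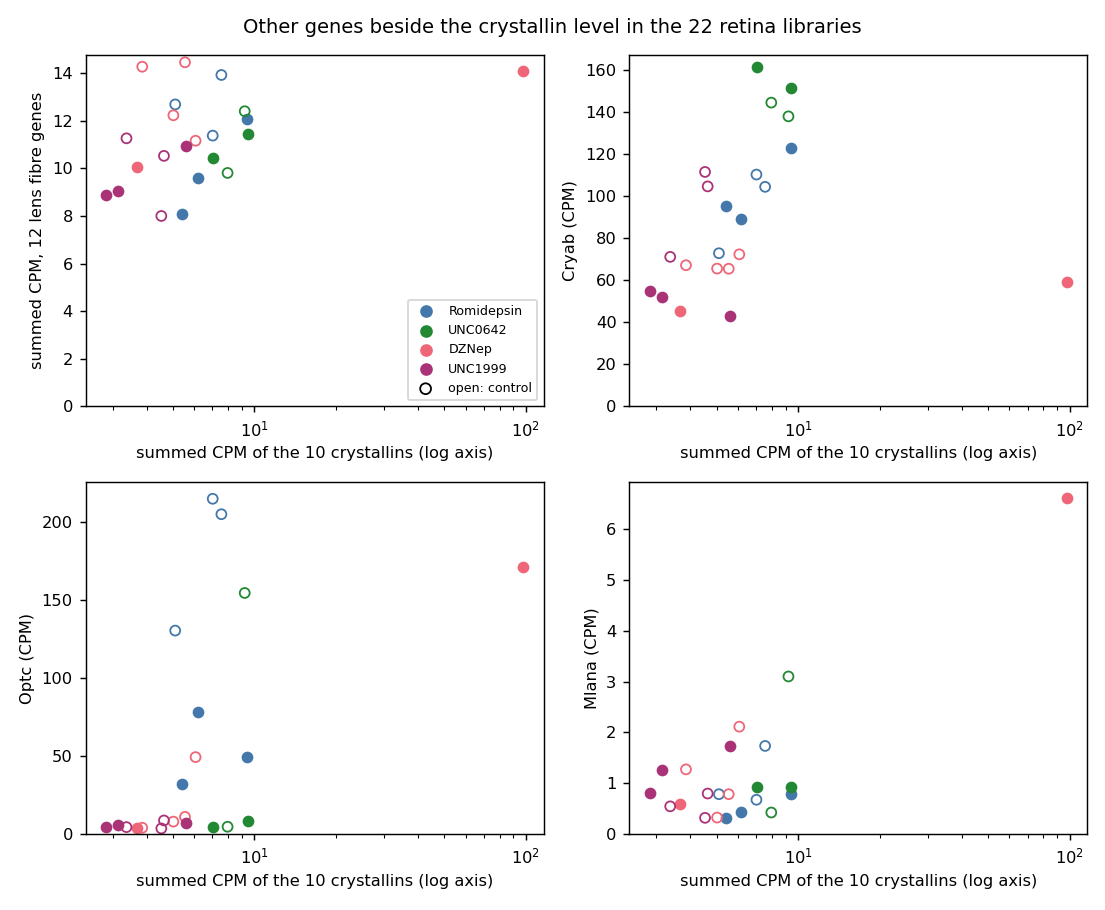
Summed CPM of the 10 members (x axis, log) against the lens fibre sum, Cryab, Optc and Mlana (y axes, CPM) in the 22 retina libraries; colour gives the experiment and open points are controls. The point at 97.5 on the x axes is DZNep treated 2: it lies within the other libraries for the lens fibre sum of all 12 genes, Cryab and Optc and above them for Mlana.

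The genes most like the members were ranked by Pearson's r between their log2 CPM and the mean log2 CPM of the 10 members over the 22 retinas, among 17949 genes. First came Cryge (r = 0.93, Spearman's rho 0.45) and Crygc (0.92 and 0.46), and lower in the ranking stood Gm14872 (0.66), E130304I02Rik (0.65), Gm3470 (0.65), Mlana (0.64), Syt17 (0.63), SCARNA17 (0.62) and Gm14388 (0.62). Without DZNep replicate 2, r was 0.18 for Cryge and 0.25 for Crygc, and 0 of the 10 genes were among the first 10. The ranking rests on that library.

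The members were also compared with each other, as the correlation of each with the mean log2 CPM of the other 9. It was highest for Crygd (0.94), Cryba1 (0.93), Cryaa (0.93) and Crygb (0.92) and lowest for Crybb3 (0.21). Over the 21 retinas without DZNep replicate 2 it was 0.73 for Cryba1, 0.65 for Cryaa, 0.56 for Crygd and 0.52 for Crygb, against 0.09 for Cryba2 and -0.19 for Crybb3. Many of these counts are under 10 and libraries of an experiment share their setting, so the values are a description only.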

How the data were processed

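Whole retinas (22 libraries) and sorted rods (4 libraries) of rd10 mice were sequenced. The authors trimmed reads with BBDuk, aligned them with HISAT2 (2.2.1) to Ensembl release 67 (NCBIM37) and deposited raw counts per gene from HTSeq (0.11.2). Whether counting used strand is not given in the sources used here. Of 37991 identifiers, 37205 received a GENCODE M1 symbol of the same build.

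From these deposited counts, each treatment was fitted against its own controls with edgeR 4.0.16 (filterByExpr, TMM, quasi-likelihood test, Benjamini-Hochberg; called at adjusted p under 0.05 and a log2 fold change beyond 1) in R 4.3.3, as the authors did with edgeR and these thresholds but by quasi-likelihood. The script was tested on simulated data. CPM used TMM factors over all 26 libraries, and log2 CPM a prior count of 2. Shares carry exact binomial intervals, and ratios of 2 libraries exact conditional intervals. The chi-square per gene was at least 3.89 in each of 23 replicate pairs, so no library was a copy of another of its group. Libraries of different groups were not compared in this way.

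The 10 members and all lists were chosen with earlier results of these data known. Named genes are the members, the other lens crystallins, the 12 lens fibre genes and the 10 genes most like the members by r. Of all these named genes, 2 are not reported here. The labels number the genotype and the compound upward along rows (rd11 to rd21, UNC2000 and UNC2001), and were read as rd10 and UNC1999. Library depth limits a gene at 0 to 3 counts, or 0.0825 to 0.218 CPM in a retina. Other settings tried were edgeR's likelihood ratio test, RLE factors, DESeq2 1.42.0, other filters, a replicate block, a robust spread, all retinas in one fit and leaving out each library.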

Additional observations from a re-analysis of the deposited data

Results flagged for a closer look

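Crybb3 in the 4 DZNep controls was flagged because 1 library stood far from the others: DZNep control 3 had 38 counts (1.77 CPM), while the remaining controls had 49, 49 and 60 counts (2.25, 2.26 and 2.32 CPM). Such a gap arises by chance in about 1 in 20 groups, and only this group had enough libraries to be examined.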

How the results depend on the processing

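The count of crystallins called in DZNep was 2 as reported, by the likelihood ratio test, by DESeq2 and with RLE factors, and differed elsewhere: 7 without the filter on low counts, 4 with all 22 retinas in one fit, and 0 with at least 10 counts required in every library, with a replicate block or with a robust spread. The count was 1 (Cryaa) without any 1 control. As the members were chosen with this contrast known, nothing is read from these counts. The shares of all genes called under these settings are not given. The log2 fold change of Crybb2 ran from -1.15 (without DZNep treated 2) to 4.91 (without DZNep treated 1). No member of the other comparisons and no lens fibre gene, among those that passed each filter, was called under any alternative. The ratio of the 2 highest summed levels was 23.9 without Crybb3 and 30.4 without Crybb3, Crybb1 and Cryba4 (added after seeing the data). The lens fibre log2 ratio ran from -0.38 (without DZNep treated 2) to 0.11 in DZNep and from 0.98 to 1.38 (without rods control 1) in the rods when 1 library was left out. Without Hsf4 (added after seeing the data) it was 0.35 in DZNep, -0.12 in Romidepsin and -0.28 in UNC0642.

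Whether the same replicate numbers mark paired samples could not be told. Correlations of same-numbered deviations ran from -0.28 to 0.23, and groups of 2 to 4 libraries are too small to settle it. Genes called beside the reported 281 (DZNep), 58 (UNC1999), 0 (UNC0642), 90 (Romidepsin) and 0 (rods) numbered 469, 34, 498 and 68 by the likelihood ratio test in UNC1999, UNC0642, Romidepsin and rods, and 357, 15, 387 and 42 by DESeq2. Without the filter they were 342, 173, 367 and 168, with the replicate block 21 (UNC1999), 124 (UNC0642) and 3 (rods), and in one fit of all retinas 437, 3 and 520 (UNC1999, UNC0642, Romidepsin). A robust spread gave 2 in UNC0642, and no fold threshold 3734 in DZNep and 95 in UNC1999. Leaving out 1 library gave 4 to 806 (UNC1999), 0 to 99 (UNC0642), 0 to 338 (Romidepsin) and 0 to 210 (rods). The causes were not tested. At these depths, gamma chains at 0 to 3 counts cannot be ranked among libraries.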
